A study of Mus musculus with 2 samples.

Results

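The predicted piRNAs that lie in ERVL repeats comprised 816 of the 6588 predicted piRNAs and of the 27065 small RNA entries listed for mouse testicular extracellular vesicles (EVs). Members were chosen by annotation and not by level: a predicted piRNA belonged if the repeat class written beside its place was LTR/ERVL, with the related ERVL-MaLR class kept apart. Entries with the same written interval were joined into a locus, which gave 245 ERVL loci among 1648 loci of all classes. The small RNA came from 2 libraries of 1 condition, testicular EVs of adult C57/BL6 males aged 8 weeks, digested with proteinase K and RNase A before RNA extraction to remove protein and RNA outside the vesicles. Nothing in the sources tells separate animals or preparations apart, and the spread between both libraries may therefore be purely technical. The listed counts summed to 21970654 in library 1 and 24829208 in library 2, and levels are given as counts per 1000000 listed counts (CPM). With 1 condition there is no comparison between groups. Differences below are between the libraries, with 1 library on each side and no test. Of the whole profile, the testis-enriched miRNAs miR-202-5p, miR-449a-5p, miR-470-5p and miR-741-3p were all detected, between 137 CPM for miR-741-3p in library 2 and 4081 CPM for miR-470-5p in library 1.

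piRNAs are small RNAs of the germline that bind PIWI proteins and guide them to matching transcripts, where they silence transposons. In the adult mouse testis most are cut from long single-stranded transcripts of a limited number of genomic clusters, and many of them match no active transposon. ERVL elements are endogenous retroviruses of class III, and most of their copies in the mouse genome are single long terminal repeats (LTRs) left after the rest of the provirus was lost. An LTR is the repeated end of a retroviral genome and holds its promoter. Members of the ERVL group are known for their transcription in the early cleavage embryo, where their LTRs also start host transcripts.

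The sequence of an ERVL locus could be read where the whole interval lies in an annotated exon, from the GENCODE M21 transcripts (GRCm38). This held for 15 loci. These loci were chosen for being readable, after their values were seen, and only those at ranks 5 and 9 by level are among the 10 highest. An LTR typically starts with TG and ends with CA, and 3 of the 15 loci had both ends. They are shown because such ends are those of a complete LTR, although completeness was judged by these letters alone. The first and last 30 bases are given 5′ to 3′ on the written strand, with the terminal TG and CA in capitals. The locus at rank 24 (chr10:66705469-66705908, minus strand, 440 bp) lies antisense in an exon of the lincRNA Gm31181, and the loci at rank 104 (chr10:83386010-83386449, plus strand, 440 bp) and rank 109 (chr10:83431341-83431795, minus strand, 455 bp) lie in exons of D10Wsu102e.
Rank 24, first bases: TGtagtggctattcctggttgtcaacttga
Rank 104, first bases: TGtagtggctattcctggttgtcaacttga
Rank 109, first bases: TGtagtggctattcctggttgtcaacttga
Rank 24, last bases: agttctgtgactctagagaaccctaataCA
Rank 104, last bases: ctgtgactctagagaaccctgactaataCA
Rank 109, last bases: ctgtgactctagagaaccgtaattaataCA

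The first 30 bases were identical in the 3 loci, although 1 lies on the plus strand and 2 on the minus strand. The written strand thus had the same orientation relative to the repeat in these 3 loci. Whether it is the strand of the repeat or that of the small RNA is not given. Same strand, opposite strand and antisense refer to the written strand throughout. Over aligned bases, the 3 LTRs were identical at 93.2% to 94.0% of positions. This leaves out the gaps, which took 39 to 82 columns of each pairwise alignment. Both ends were present only when the written start was counted as the first base, and in 0 of 15 loci when it was left out. Among other LTR classes, 9 of 60 loci inside exons had both ends, and among LINE and DNA transposon loci 0 of 17 had them. These letters are a description of the intervals and not evidence of a functional site.

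The highest locus shown here by its sequence is rank 9 (chr5:143763910-143764279, plus strand, 370 bp), in an exon of the lincRNA D130017N08Rik on the same strand. It carries the same LTR/ERVL label as the loci above, but had neither TG at its start nor CA at its end. Its first 300 bases are shown with no letter marked.
Rank 9, first 300 bases: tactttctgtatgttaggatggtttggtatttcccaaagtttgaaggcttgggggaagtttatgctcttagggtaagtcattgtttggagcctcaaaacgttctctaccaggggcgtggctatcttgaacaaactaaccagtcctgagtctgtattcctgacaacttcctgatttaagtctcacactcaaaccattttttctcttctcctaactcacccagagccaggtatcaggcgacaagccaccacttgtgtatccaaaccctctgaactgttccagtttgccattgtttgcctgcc

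The repeats differed in how often their letters recur in transcripts of other genes. Copies outside annotated transcripts were not searched. Of the 25-base windows of the rank 9 locus, 0% were found in a GENCODE transcript of another gene, on either strand. The share was 100% at rank 104, with matches in 276 other genes, 51.9% at rank 24 (274 genes) and 48.5% at rank 109 (271 genes). A tag from such a window cannot be placed in 1 copy by its sequence. The remaining 9 loci examined had shares between 0% and 13.9%, and 5 of them had 0%. These include the locus at rank 171 in the chromosome 17 neighbourhood described below (chr17:27326536-27326628, minus strand, 93 bp), antisense in an exon of Gm10505, whose whole sequence is given next.
Rank 171: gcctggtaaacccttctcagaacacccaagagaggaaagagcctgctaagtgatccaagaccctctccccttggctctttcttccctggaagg

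The ERVL entries together held 63358 counts in library 1 and 58610 in library 2. Summed over entries, this was 2884 CPM in library 1 and 2361 CPM in library 2. The mean was 2622 ± 370 CPM (SD, n = 2). They made up 11.3% of the counts of predicted piRNAs in library 1 (exact Clopper-Pearson 95% interval 11.2% to 11.4%) and 10.6% in library 2 (10.5% to 10.7%). These intervals do not overlap, but they describe counting error alone, because reads copied by PCR are not independent. By the same measure ERVL-MaLR repeats held 36.6% ± 0.331 (SD, n = 2), LINE/L1 elements 22.6% ± 1.41, ERVK repeats 17.9% ± 1.00 and ERV1 repeats 5.80% ± 0.219. ERVL repeats thus stood between ERVK and ERV1 in both libraries.

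Most ERVL loci were short and held few predicted piRNAs. A locus spanned 190 bp in the median, from 38 to 2343 bp, while the medians of the other classes named above lay between 329 bp for ERVL-MaLR and 532.5 bp for LINE/L1. A locus held 3.33 entries on average and 1 in the median, and 150 loci (61.2%) held a single entry. In the other classes together, 55.02% of loci held a single entry. The level of a locus ranged from 0.452 to 235 CPM, with a median of 2.34 CPM, and that of an entry from 0.429 to 207 CPM, with a median of 1.34 CPM. Each of the 816 entries had at least 10 counts in both libraries, as had every predicted piRNA of the other classes. Only 79 entries reached 100 counts in both, and these held 54.1% of the ERVL CPM in library 1 and 51.4% in library 2.

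A few loci therefore carried much of the signal. The 10 highest loci held 37.0% of the ERVL CPM in library 1 and 44.5% in library 2, and the single highest held 7.005% and 11.4%. The corresponding shares of the 10 highest loci were 62.5% and 58.8% in ERVL-MaLR, 58.7% and 57.9% in ERV1, 55.6% and 59.0% in LINE/L1, and 34.6% and 33.5% in ERVK.

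**Figure D1:**
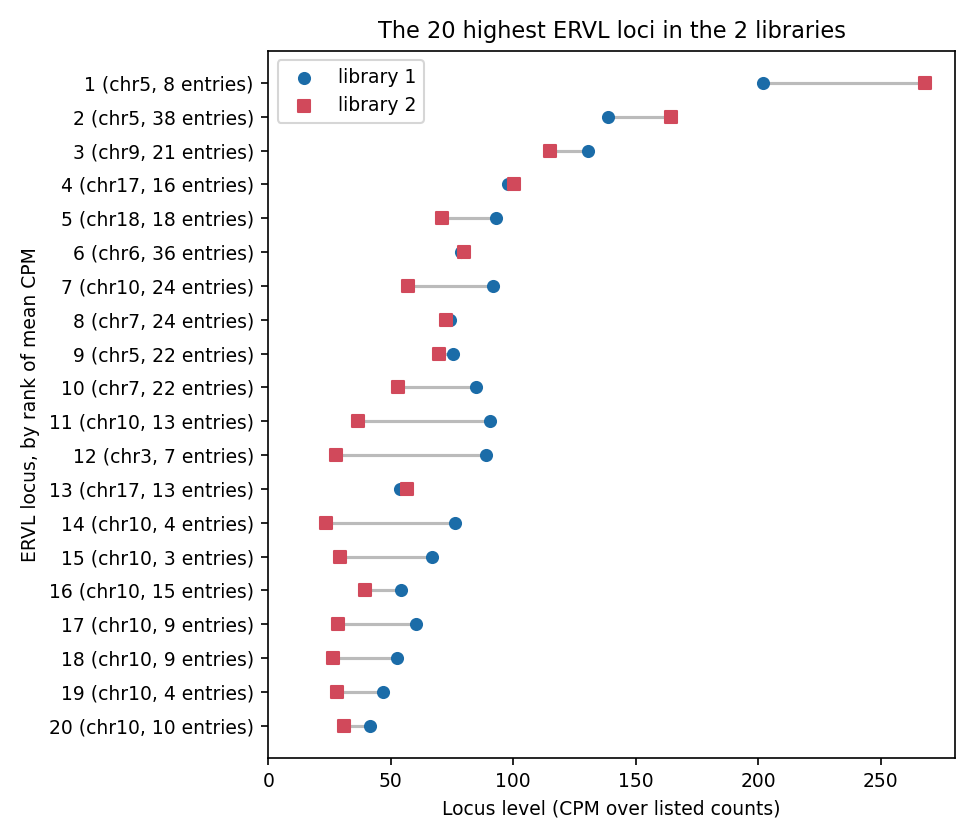
Level of the 20 ERVL loci of highest mean CPM, with 1 point per library (circle, library 1; square, library 2) and a grey line joining both; the axis is linear in CPM and starts at 0. Rank 1 reached 202 and 268 CPM, and the 9 loci of chromosome 10 all lay higher in library 1.

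The highest locus was a 127-bp fragment on chromosome 5 (chr5:113338408-113338534, minus strand), outside annotated genes and 763 bp from the miRNA gene Mir7230. Its 8 entries reached 202 CPM in library 1 and 268 CPM in library 2, with a log2 ratio of library 2 over library 1 of 0.41. A single entry, novel_pir47031, held 88.1% of this level, with 180 and 234 CPM. It was also the highest ERVL entry, and its level exceeded that of every other ERVL locus in both libraries. Within 50000 bp of the locus lay 28 other predicted piRNA loci of 6 repeat classes, with a joint level of 728 and 648 CPM.

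The second locus was also on chromosome 5 (chr5:149802713-149803335, plus strand, 623 bp), in an intron of the lincRNA Gm21221 and antisense to it. It held the most entries of all ERVL loci, 38, and reached 139 CPM in library 1 and 165 CPM in library 2. Its top entry novel_pir46963 held 38.0% of it, so the level was spread over many more predicted piRNAs than at rank 1. The third locus (chr9:54238334-54238765, plus strand) lay antisense in an intron of Cyp19a1, which encodes aromatase, the enzyme that makes oestrogen from androgen. Its 21 entries reached 130 and 115 CPM, and novel_pir55557 held 34.2% of this level. Both loci differed between the libraries by less than 2-fold.

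At rank 4 stood a locus on chromosome 17 (chr17:27350304-27350504, minus strand, 201 bp) outside genes, with 16 entries and nearly equal levels of 97.7 and 100.2 CPM. It formed, with rank 13 (chr17:27338531-27338983, minus strand, 13 entries), the one pair of ERVL loci within 20000 bp on 1 strand among the 20 highest, with a gap of 11320 bp. Rank 13, antisense to an exon of Gm10505, reached 53.7 and 56.7 CPM, and its entry novel_pir33353 held 63.8% of that. Around rank 4 lay 32 other predicted piRNA loci within 50000 bp at a joint 1439 and 1546 CPM, and around rank 13 lay 39 at a joint 1836 and 1923 CPM. The log2 ratios of both ERVL loci, 0.04 and 0.08, were close to 0, as was that of their neighbours' joint level. A predicted miRNA, novel_mir336, lay 816 bp from rank 13 on the same strand and differed more, with 40.1 and 74.2 CPM.

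**Figure D2:**
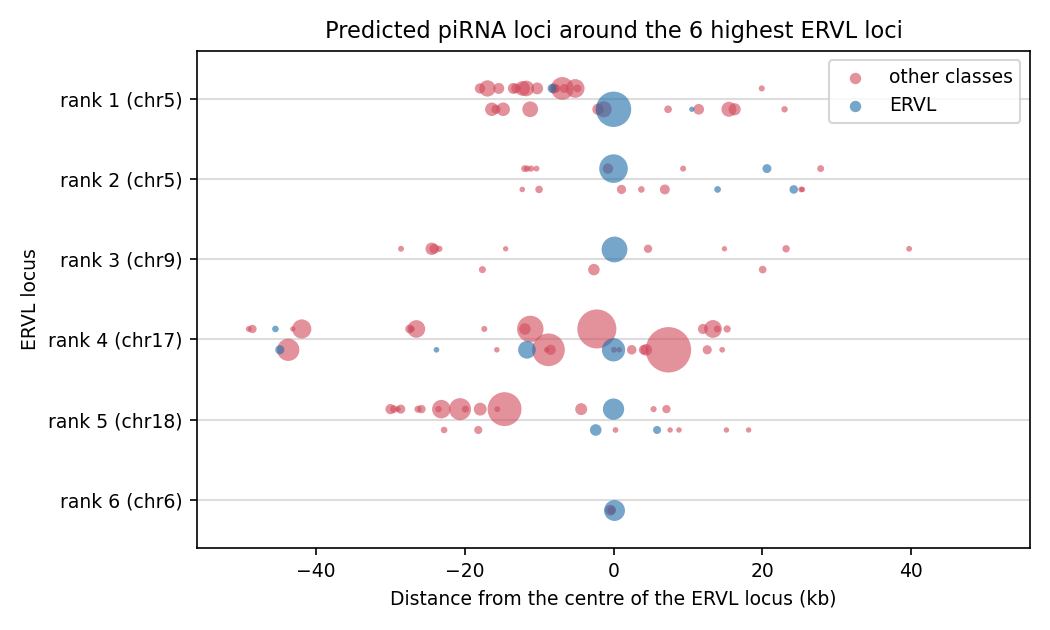
Predicted piRNA loci within 50000 bp of each of the 6 highest ERVL loci, by distance in kb from the centre of the ERVL locus (horizontal) and by locus (rows); points above a line are on the plus strand, points below on the minus strand, and the area of a point rises with its mean CPM. Ranks 1 to 5 have between 12 and 32 neighbours and rank 6 has 2.

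Rank 5 was a 433-bp locus on chromosome 18 in an exon of the lincRNA AC140207.2, on its strand, with 18 entries at 92.9 and 71.0 CPM. Another ERVL locus, rank 32, lay 1952 bp away on the opposite strand, also with 18 entries, at 20.8 CPM in both libraries. A further one, rank 62, lay 5489 bp from rank 5 with 6 entries at 6.42 and 8.50 CPM. The 3 loci of 1 neighbourhood thus had log2 ratios of -0.39, 0.00 and 0.41.

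The other loci of the 10 highest lay in sparser surroundings, apart from rank 10. Rank 6 (chr6:85989011-85989385, minus strand), antisense in an intron of Gm19265, held 36 entries at 78.6 and 79.7 CPM and had 2 neighbours. Rank 8 (chr7:52908208-52908573, plus strand) held 24 entries at 74.0 and 72.4 CPM, 18497 bp from the nearest gene, with 1 neighbour, a LINE/L1 locus of 146 and 105 CPM. Rank 9, whose sequence is shown above, held 22 entries at 75.5 and 69.6 CPM, and its only neighbour was a further ERVL locus 139 bp away in the same lincRNA.

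Ranks 7 and 10 differed more between the libraries. Rank 7 (chr10:126017771-126017898, plus strand, 128 bp), 2412 bp from Lrig3, a gene for a membrane protein with leucine-rich repeats, held 24 entries at 91.7 and 57.1 CPM and had no other predicted piRNA locus within 50000 bp. Rank 10 (chr7:73804623-73804994, minus strand), in an intron of the lincRNA Gm10619 on the same strand, held 22 entries at 84.8 and 53.0 CPM. Its 23 neighbours within 50000 bp had nearly equal joint levels of 458 and 472 CPM. Of the 10 highest loci, 4 were higher in library 2 and 6 in library 1, and none was over 2-fold apart.

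Since a longer interval can hold more tags, levels were also compared per 100 bp. The median was 1.12 CPM per 100 bp, and the range 0.0654 to 185. Rank 1 was again highest, with 159 and 211 CPM per 100 bp. Of the 10 highest loci by level, 3 were also among the 10 highest per 100 bp, ranks 1, 4 and 7. The other 7 of those highest per 100 bp were short loci of chromosome 10, led by rank 14 (chr10:22141357-22141430, minus strand, 74 bp) in an intron of E030030I06Rik with 103 and 31.7 CPM per 100 bp. With rank 7, chromosome 10 gave 8 of those 10.

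Among the 10 highest entries, 9 lay in loci that hold other entries as well and novel_pir9896 was alone in its locus (rank 23, chr10:76977963-76978071, minus strand), in an intron of Gm35721 on the same strand. Its level was 49.6 CPM in library 1 and 15.3 CPM in library 2. The entry novel_pir13818, which held 80.3% of rank 14, showed a similar gap with 62.1 and 17.8 CPM. In contrast, novel_pir31250 of rank 4 had 36.7 and 40.8 CPM and novel_pir33953 of rank 5 had 33.4 and 29.8 CPM. The last pair of these entries pointed in opposite directions: novel_pir54320 of rank 21 (chr8:92194602-92195032) had 36.5 and 20.7 CPM, and novel_pir19445 of rank 22 had 17.7 and 38.1 CPM.

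Over all ERVL entries the libraries were not symmetric. Of the 816 entries, 177 (21.7%) were over 2-fold higher in library 1 and 84 (10.3%) over 2-fold higher in library 2. The background over the 21195 entries of any kind with at least 10 counts in both libraries was 11% and 16.1%, so ERVL entries leaned to library 1 while entries as a whole leaned to library 2. Other predicted piRNAs had the same lean, with 18.9% and 9.96%. The median log2 ratio was -0.18 for ERVL entries and -0.18 for other predicted piRNAs, which is the value of an entry with equal counts in both libraries, while that of the background entries was 0.15. With the libraries scaled by TMM, which assumes that most entries do not differ, every log2 ratio decreased by 0.19, and the median of ERVL entries came to -0.36. Between the libraries, the coefficient of variation beyond counting error estimated by edgeR was 47.6% for ERVL entries, 42.6% for all entries and between 42.1% and 44.5% for the other 4 classes named.

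By locus, the median log2 ratio was -0.35 for ERVL and -0.25 for the other classes, and 158 of 245 ERVL loci and 878 of 1403 loci of the other classes were higher in library 1. Over 2-fold higher in library 1 were 23.7% of ERVL loci and 17.6% of the other loci, and in library 2 6.94% and 7.13%. The ratio moved with the number of entries in a locus. The 45 loci of 5 or more entries, which held 68.6% and 73.1% of the ERVL CPM, had a median of -0.19, with 3 loci over 2-fold higher in library 1 and 0 in library 2. The 150 loci of a single entry had a median of -0.55, with 47 (31.3%) and 11 (7.33%). The split by number of entries was not computed for the other classes, so it cannot be called particular to ERVL loci. Depth gave another order. With at least 100 counts required of an entry in both libraries, medians lay further from 0, at -0.33 for entries and -0.59 for loci. Medians at this minimum were not computed for the other classes. Within loci of 5 or more entries, the log2 ratios of single entries had a median SD of 0.92, and all entries of a locus went 1 way in only 2 of the 45 loci. The summed levels of these loci had an SD of 0.50. A sum over several entries spreads less than its members by averaging alone.

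**Figure D3:**
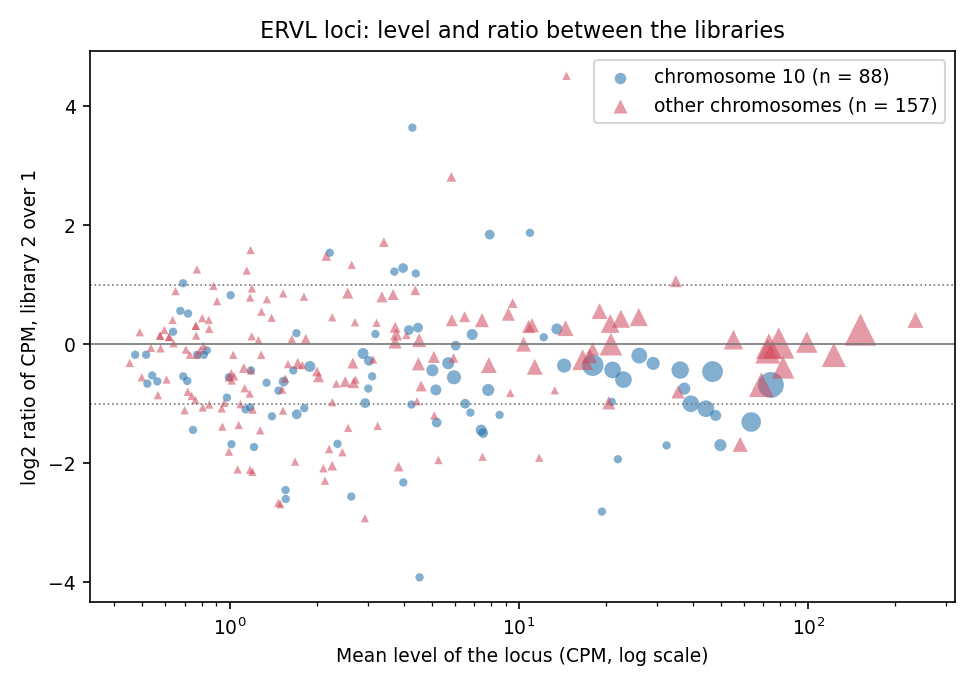
Log2 ratio of CPM in library 2 over library 1 (vertical) against the mean CPM of the locus (horizontal, log scale) for the 245 ERVL loci; circles are loci of chromosome 10 (n = 88), triangles those of other chromosomes (n = 157), and the area of a point rises with its number of entries. Dotted lines mark 2-fold; the loci of 5 or more entries on chromosome 10 all lie below 0.

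Chromosome 10 held the most ERVL loci. It had 88 ERVL loci (35.9%) and 255 entries, but 4.88% of GENCODE genes. The other predicted piRNA classes had 33.6% of their loci there, so this excess was shared. Entry numbers of predicted piRNAs followed the chromosomes, from 4 to 14785 on chromosome 10 and from 14819 to 18340 on chromosome 11, with chromosome 1 from 36438. The part of this numbering in the excess was not tested. Chromosome 11 came next with 37 ERVL loci (15.1%) against 6.20% of loci of other classes, though it held 4.98% of ERVL CPM. In all, 19 chromosomes held an ERVL locus.

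**Figure D4:**
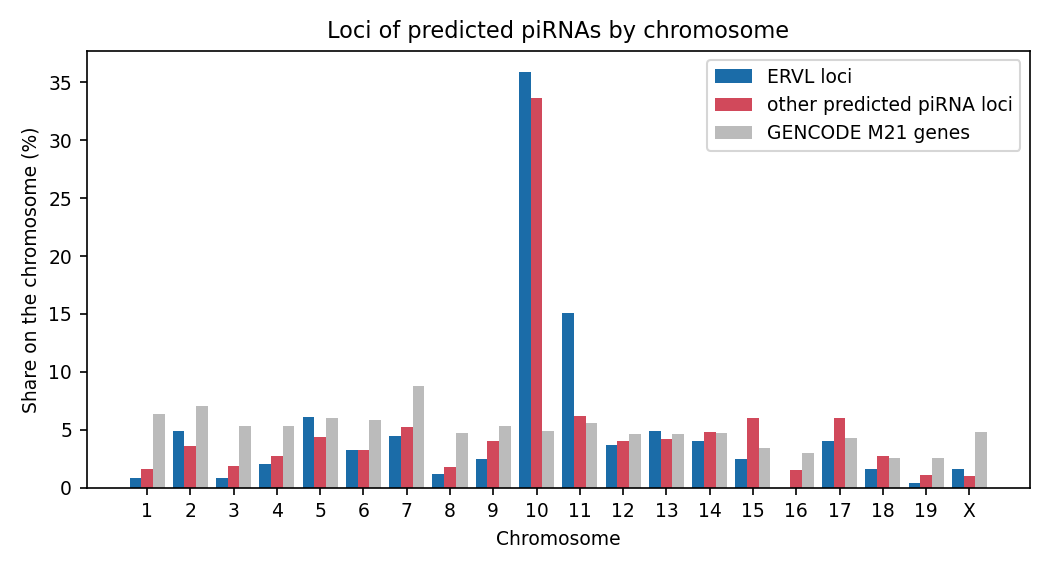
Share (%) of ERVL loci, of other predicted piRNA loci and of GENCODE M21 genes on each chromosome; bars start at 0. Chromosome 10 holds 35.9% of ERVL loci, 33.6% of the other loci and 4.88% of genes.

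ERVL loci of chromosome 10 held 39.0% of the ERVL CPM in library 1 and 28.1% in library 2. Their median log2 ratio was -0.57, against -0.18 for ERVL loci of the other chromosomes pooled. Single chromosomes with fewer loci lay lower still, such as chromosome 15 (-1.23), chromosome 13 (-0.95, 12 loci), chromosome 8 (-0.76) and X (-0.66), and chromosome 11 had -0.40 over 37 loci. In the other classes the medians were -0.42 on chromosome 10 and -0.18 elsewhere, with chromosomes 11, 19 and X lower than chromosome 10. In sum, the ERVL loci of chromosome 10 had 1125 and 664 CPM, while those of all other chromosomes had 1758 and 1697 CPM. Among loci of many entries, all 13 chromosome 10 loci of 5 or more entries were higher in library 1, with log2 ratios from -1.31 to -0.19. Of the 32 such loci elsewhere 14 were, with a median of 0.01. Loci of 5 or more entries in the other classes were not counted by chromosome. Of the 20 highest loci, 9 lay on chromosome 10 and were all higher in library 1, as were 6 of the other 11. Rank 11 (chr10:84107944-84108050) showed this with 90.5 and 36.6 CPM. Outside chromosome 10, rank 12 (chr3:134773527-134774074), 54933 bp from Tacr3, a neurokinin receptor gene, had 88.8 and 27.7 CPM, so the difference was not confined to 1 chromosome.

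The furthest apart of the 55 loci with a mean count of at least 200 mostly held 1 entry. Rank 35 (chr10:118006039-118006163, minus strand), 752 bp from Gm37852, had 33.9 and 4.83 CPM, a log2 ratio of -2.81. Rank 29 (chr10:28205626-28205738, minus strand), antisense in an intron of Ptprk, a receptor tyrosine phosphatase gene, had 34.9 and 9.14 CPM. Rank 47 (chr11:97158772-97158930, plus strand), 784 bp from Kpnb1, the gene of a nuclear import receptor, had 18.6 and 4.95 CPM. None of the 3 had another predicted piRNA locus within 50000 bp.

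In the other direction, rank 41 (chr11:5067204-5067832, minus strand), 1857 bp from Ewsr1, the gene of an RNA-binding protein, had 27 counts in library 1 and 695 in library 2, or 1.23 and 27.99 CPM. This log2 ratio of 4.51 was the highest of all ERVL loci. Rank 50 (chr10:57093824-57094293, minus strand), 22929 bp from Gm40652, had 4.69 and 17.2 CPM and so went against most loci of its chromosome. Rank 22 (chr12:55648523-55648662, plus strand), antisense in an intron of Ralgapa1, the gene of a subunit of a Ral GTPase-activating complex, had 22.6 and 47.2 CPM. It held 4 entries, of which 2 were higher in each library.

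Loci with company differed less between the libraries than loci alone. Within 10000 bp on either strand, 76 ERVL loci (31.0%) had another predicted piRNA locus of any class, and 65 (26.5%) had one on the same strand. In the other classes 39.8% had a neighbour on either strand. The 76 loci had 1547 and 1524 CPM in sum and a median log2 ratio of -0.08. The 169 loci with no neighbour had 1337 and 837 CPM and a median of -0.55, and 51 of them (30.2%) were over 2-fold higher in library 1, against 7 (9.21%) of those with a neighbour. The other classes showed the same split, with medians of -0.33 without and -0.18 with a neighbour, and 21.7% and 11.5% over 2-fold higher in library 1. Chromosome moved with this split too: 72 of the 88 loci on chromosome 10 had no neighbour, against 97 of 157 elsewhere. The medians without and with a neighbour were -0.63 and -0.42 on chromosome 10, and -0.44 and 0.00 on the other chromosomes, so the order was the same within each. The share of the number of tags in these differences was not tested, although loci with a neighbour had a higher median level, 3.87 against 1.70 CPM.

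ERVL loci also lay beside each other. In 31 pairs, 18 of them on 1 strand, 2 ERVL loci were at most 10000 bp apart, and 42 loci took part. Some lay in exons of 1 gene, such as ranks 37 and 93 in Cep83os, 694 bp apart, with log2 ratios of -0.35 and 1.28. Predicted miRNAs lay near others: novel_mir785 (69.4 and 76.0 CPM) was 425 bp from rank 28 on the same strand, and novel_mir15 (27.3 and 18.7 CPM) was 2559 bp from rank 1 on the same strand.

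With respect to genes, 140 ERVL loci (57.1%) lay outside them, 85 in introns and 20 over exons. Introns on the same strand held 43 loci (17.6%) and on the opposite strand 42 (17.1%), and in the other classes 9.62% and 17.2%. Exons held 8 loci on the same strand and 12 on the opposite one. Loci outside genes carried 56.3% of ERVL CPM in library 1 and 54.2% in library 2. Loci in introns on the opposite strand carried 21.2% and 24.2%, most from ranks 2, 3 and 6. These are written strands, which may be those of the repeats, so the small RNAs themselves cannot be called sense or antisense to the genes. By the written strand, 137 loci (55.9%) were on the plus strand, with 48.5% and 48.0% of the ERVL CPM. No group of places or strands was compared by a test, since loci are not replicates.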

How the data were processed

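Small RNA of testicular EVs was sequenced by the authors on the BGISEQ-500 in 2 libraries of 1 condition. According to the methods, low-quality reads were removed, the rest mapped with Bowtie2 and cmsearch, each tag given to 1 class by a fixed order of databases, and further piRNAs predicted with Piano. The genome build was not given in the sources used here, nor were versions of these tools. Per entry, the deposited counts are whole numbers of tags, not normalized. The deposited TPM values give the same tags per 1000000 of a larger total (about 23442800 and 26168739 tags) with no length correction, so their unit is RPM, and they served as an alternative only. A predicted piRNA carries the repeat and its interval, not its own place or sequence, so all entries of a locus share 1 interval.

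CPM were computed here over the sum of all listed counts of a library. The depth of 21970654 and 24829208 counts gives narrow exact Clopper-Pearson 95% intervals for shares, which cover counting error only. A locus is a set of entries with 1 interval. 1 of the 6588 predicted piRNAs has no interval and was left out of loci. Over 2-fold apart counts as called, and its background is all entries with at least 10 counts in both libraries. No test was made, as each side has 1 library. Intervals were compared with GENCODE M21 (GRCm38). Of 168 predicted miRNAs in the files, 9 overlapped an annotated small RNA gene on the same strand at the written positions and 0 and 1 after shifts of 1000 bp down and up, and the LTR ends fitted this build. No genome sequence was used, so sequences came from GENCODE transcripts, and the planned search of 25-base windows in the genome was made over these transcripts on both strands, for the 13 loci in exons outside chromosome 18. TMM and the coefficient of variation came from edgeR 4.0.16 and size factors from DESeq2 1.42.0 in R 4.3.3. The calculations were tested on simulated data. Other steps used Python 3.11.15, pandas 2.3.3, NumPy 2.4.6, SciPy 1.17.1 and matplotlib 3.10.9.

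Members, rules and alternatives were chosen with earlier results of these data known. Named were the 10 loci and 10 entries of highest mean CPM, the 3 loci with most entries, the 3 furthest apart in each direction among loci with a mean count of at least 200, pairs within 20000 bp on 1 strand among the 20 highest, and the genes at or nearest to them. Loci named for their sequence, their place beside another locus or their rank from 11 to 20 are outside this rule and were chosen after their values were seen, as were the predicted miRNAs and the 4 testis miRNAs.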

Additional observations from a re-analysis of the deposited data

How the results depend on the processing

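There were 41 alternatives besides leaving out a library. Of these, 20 left their result within its spread or a count within 1.5 times, 21 moved it and 0 reversed it. Only a median log2 ratio could be reversed, because levels, shares and counts are never negative. The spread of a median was taken over entries or loci, which are not replicates. The ERVL level was 2361 to 2884 CPM with 1 library left out, and 10010 CPM per 1000000 annotated tags, a smaller total. The share of predicted piRNA counts was 10.6% to 11.3% with 1 library left out, and 47.5% with ERVL-MaLR counted in. A minimum of 100 counts in both libraries left 79 entries, 43 loci and 20 and 2 entries over 2-fold higher in libraries 1 and 2, with median log2 ratios of -0.33 for entries and -0.59 for loci. Without chromosome 10, 100 entries were over 2-fold higher in library 1, and the medians were -0.070 for entries and -0.18 for loci. For neither setting was the share of all entries over 2-fold apart computed. TMM and DESeq2 library sizes, which moved the median of all entries by -0.19 and -0.18, gave -0.36 and -0.35 for entries and -0.54 and -0.53 for loci. Among loci with a neighbour within 10000 bp, an alternative chosen after seeing the data, the median was -0.083. With 1 library left out, the share of chromosome 10 was 28.1% to 39.0%, that of the highest locus 7.005% to 11.4%, that of the 10 highest 37.0% to 44.5%, and that of the plus strand 48.0% to 48.5%. The plus strand held 55.9% of loci and 53.2% of CPM without the highest locus. Within 1000 bp, 35 loci had a neighbour on the same strand. Windows of 20 and 30 bases were shared at 28.4% and 21.8%, against 24.6% for 25 bases. Ratios between the libraries have no value with 1 library left out, and no repeat carried an uncertain ERVL label, so that alternative gave no value. No paired analysis was possible because all samples form 1 group. Entries near 10 counts limit what a ratio between the libraries can show.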
